A study of Homo sapiens with 8 samples.

Results

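The genes described here belong to the integrated stress response and the unfolded protein response of A549 cells, a human epithelial line from a lung adenocarcinoma. They are 41 genes of the 19158 listed for each library, chosen by symbol, and each symbol matched 1 gene identifier. Of these, 20 are transcription factors, feedback genes and enzymes of the kind that ATF4 controls, called ATF4-type targets below, and 21 are sensors, chaperones and quality-control genes of the endoplasmic reticulum (ER). All were tested, because each reached 0.5 FPKM (a fragment count divided by transcript length and by library depth) in at least 4 libraries. Wild-type A549 cells were kept for 48 h in 1 µM dexamethasone, a synthetic glucocorticoid, or left untreated, and total RNA of 4 wells per group was sequenced after removal of ribosomal RNA. The wells carry replicate numbers 1, 3, 4 and 5 in both groups, all in batch 1, so every p-value measures the spread between wells of 1 cell line. In a bulk library, less RNA in every cell and fewer expressing cells cannot be told apart.

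Both pathways lower general protein synthesis under stress while inducing selected genes. In the integrated stress response, kinases that sense missing amino acids, haem shortage, viral RNA or misfolded ER proteins phosphorylate the initiation factor eIF2, which favours translation of the transcription factor ATF4, and ATF4 then induces genes for amino acid synthesis and uptake. In the unfolded protein response, the ER membrane proteins IRE1 (gene ERN1), PERK (gene EIF2AK3) and ATF6 sense misfolded proteins. IRE1 splices the mRNA of XBP1, ATF6 is cut to release a transcription factor, and these factors induce ER chaperones, while PERK is one of the eIF2 kinases.

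Library depth, read from the steps between low values, came to 24890000 to 28660000 fragments per library. Only 41.1% to 46.5% of the low values fell within 0.1 of a whole fragment, so this depth is approximate. Chance gives 20% at a depth fixed in advance. Each depth was the one with the highest share among many tried, so its chance level is higher and was not computed. Steps that correspond to 49780000 to 57320000 fragments gave 37.0% to 48.6%, and the labels state 40000000 to 50000000 read pairs, so which depth holds was not settled. The glucocorticoid-induced gene FKBP5 rose from 5.67 ± 1.20 to 134 ± 32.9 FPKM (SD, n = 4 per group), a check of the labels. The epithelial keratins KRT8, KRT18 and KRT7 were abundant, the epithelial adhesion gene EPCAM was low (0.518 ± 0.216 FPKM untreated, SD, n = 4), and the leukocyte genes PTPRC and CD3E and the fibroblast gene COL1A2 had a value of 0 in each of the 8 libraries. COL1A1 and CD68, listed as fibroblast and leukocyte markers, were lower after dexamethasone (2.05 ± 0.373 to 0.365 ± 0.0702 and 4.13 ± 1.23 to 2.05 ± 0.279 FPKM; SD, n = 4), while the fibroblast marker DCN was listed at 0 in the untreated libraries and at 0.17 to 0.388 FPKM in the treated ones. The summed level of the 5 fibroblast markers was 1.72 to 2.56 FPKM untreated and 0.586 to 0.808 FPKM treated, and that of 4 leukocyte markers 3.36 to 5.95 and 1.76 to 2.40 FPKM, beside 3190 to 7490 FPKM for 5 epithelial markers; their part in the results was not tested. Replicate 5 stood apart in both groups. Over 12130 genes with a known GC content, the deviation of untreated replicate 5 from its group mean correlated with GC content at a Spearman coefficient of 0.779, and that of dexamethasone replicate 5 at 0.726. Among the 41 members, untreated replicate 5 was the highest of its group for 17 and the lowest for 16. The counts and the called genes below are therefore also given with the GC trend of each library removed and without both libraries numbered 5, and other members where a call changes.

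The ATF4-type targets fell in part, and 6 of the 7 that fell were enzymes of serine, asparagine, folate and cysteine metabolism. Of the 20 genes, 7 fell (ATF3, ASNS, PSAT1, PHGDH, PSPH, MTHFD2 and CBS), 1 rose (ALDH1L2) and 12 did not pass the test, at a limma adjusted p under 0.05 over 12161 genes. That is 40.0% of the list called, where 26.8% of all genes were called (14.2% lower and 12.6% higher). The median log2 fold change of the list was -0.26, beside 0.01 over all genes with quartiles of -0.30 and 0.33. Among the 21 ER genes 3 rose (ATF6, ERN1 and DNAJC3), 0 fell, and 14.3% of the list was called, with a median log2 fold change of 0.12. Whether the share of called genes differs between the lists was not tested. Both lists together had 11 of 41 genes called, 26.8%, the same share as among all genes.

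The counts of ER genes depended on the libraries numbered 5 and on scaling between libraries. With no scaling 1 ER gene rose and 2 fell, while the ATF4-type targets had 1 rise and 8 falls (27.0% of all genes called, 10.4% higher and 16.6% lower). With the GC trend removed, 5 ER genes rose and 2 fell, and 1 ATF4-type target rose and 8 fell (37.0% of all genes called, 18.4% higher and 18.6% lower). Without both libraries numbered 5 the counts were 7 rises and 3 falls for the ER genes and 2 rises and 8 falls for the ATF4-type targets, 47.6% and 50.0% of the lists, near the 45.2% of all genes called in that fit (22.6% in each direction).

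**Figure D1:**
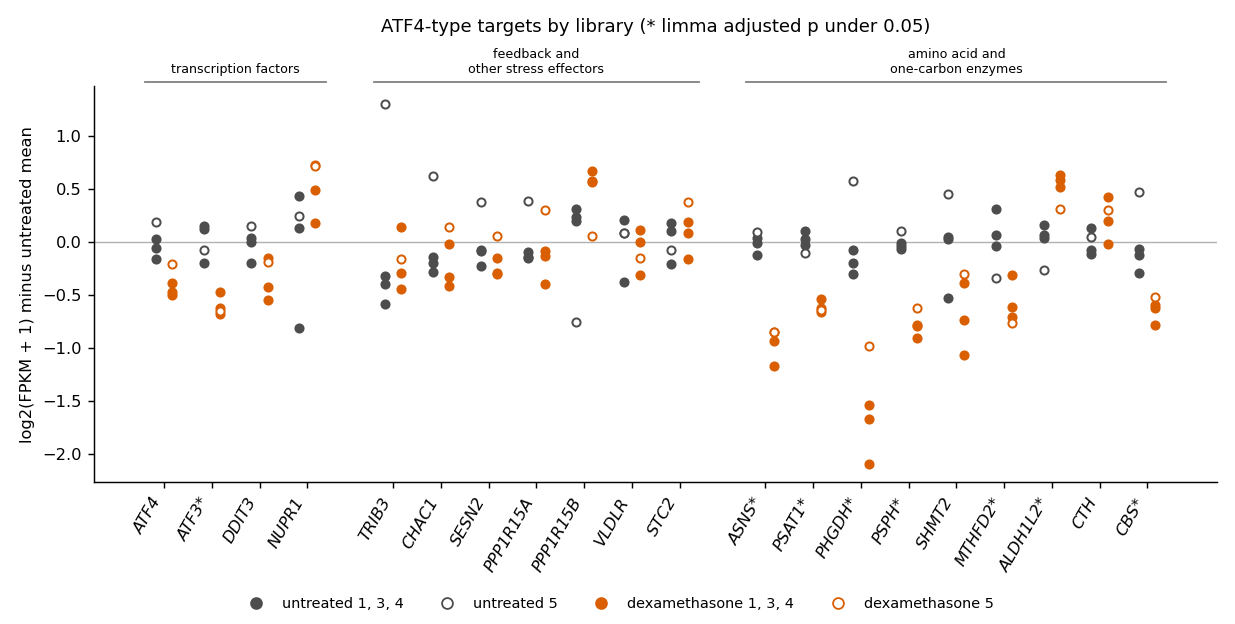
Each of the 20 ATF4-type targets in each library, as log2(FPKM + 1) minus the untreated mean; grey points are untreated and orange points dexamethasone libraries, open points are the libraries numbered 5, and an asterisk marks a limma adjusted p under 0.05. The dexamethasone points of ASNS, PSAT1, PHGDH and PSPH all lie below the untreated ones, while in the feedback genes the groups overlap and the open untreated point of TRIB3 lies far above the rest.

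Sequences are shown for the promoters that hold a match to the elements known for each arm, to let the values be read beside them. They come from RefSeq, build GRCh38.p14, in windows from 250 bases before to 50 bases after each annotated start, which were found for 36 of the 41 members (several windows for genes with more than 1 start). PSPH, ALDH1L2, NUPR1, PDIA3 and SHMT2 were not matched. The C/EBP-ATF response element bound by ATF4 was searched as TGATGNAAN on both strands. It was present in 3.61% of 35116 windows, and in those of 4 of 16 ATF4-type targets (ASNS, ATF3, CHAC1 and PPP1R15B) and of 1 of 20 ER genes (HERPUD1). A gene was counted if any of its windows held a match, so counts of genes and shares of windows cannot be compared directly. The stretches below run 5′ to 3′ on the strand of the gene, with the match in capitals, for ASNS (chr7:97872458-97872486, minus strand), ATF3 (chr1:212565191-212565249, plus strand), CHAC1 (chr15:40953251-40953279, plus strand, element on the opposite strand) and PPP1R15B (chr1:204412026-204412054, minus strand).
ASNS: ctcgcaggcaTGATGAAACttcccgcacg
ATF3: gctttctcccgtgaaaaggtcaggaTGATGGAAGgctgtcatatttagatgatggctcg
CHAC1: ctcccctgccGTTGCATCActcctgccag
PPP1R15B: ccgccccggcTGATGCAACctcacgctgc
Of these 4 genes ASNS and ATF3 fell, and CHAC1 and PPP1R15B did not pass the test. A match describes the letters of this window and says nothing about binding.

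Among the enzymes, 7 of 9 were called (77.8%, beside 26.8% of all genes). ASNS, asparagine synthetase (chromosome 7, 97852118 to 97872542, minus strand), was at 18.5, 17.0, 19.1 and 20 FPKM in the untreated libraries (replicates 1, 3, 4 and 5) and at 7.70, 9.89, 9.26 and 9.91 FPKM after dexamethasone. Every treated library was below every untreated one, a separation that 16.6% of all genes showed in this direction. The mean fell from 18.6 ± 1.24 to 9.19 ± 1.04 FPKM (SD, n = 4), 49.3% of the untreated level, and its log2 fold change was -0.95 (limma adjusted p = 0.000398, SE 0.123). Values per library here and below are FPKM scaled between libraries, and fold changes are on the log2(FPKM + 1) scale, which understates the change of low genes.

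The 3 enzymes that make serine from a glycolytic intermediate fell together. PHGDH (chromosome 1, 119648411 to 119744226, plus strand), which catalyses the first step, was at 19.0, 17.6, 20.8 and 33.3 FPKM in the untreated libraries (replicates 1, 3, 4 and 5) and at 4.35, 6.88, 6.18 and 10.6 FPKM in the treated ones. The groups did not overlap, and replicate 5 was the highest library in each of them. The mean fell from 22.7 ± 7.18 to 7 ± 2.62 FPKM (SD, n = 4), 30.9% of the untreated level and the largest fall among the members (log2 fold change -1.58, limma adjusted p = 0.00184, SE 0.261). PSAT1 (chromosome 9, 78297143 to 78330093, plus strand), the aminotransferase of the second step, was at 59.3, 61.6, 64.9 and 56.4 FPKM untreated and at 38.8, 38.0, 41.3 and 38.5 FPKM after dexamethasone. Its treated libraries lay in a narrow band below all untreated ones, and the mean fell from 60.6 ± 3.60 to 39.1 ± 1.46 FPKM (SD, n = 4; log2 fold change -0.62, limma adjusted p = 0.00325, SE 0.114). PSPH (chromosome 7, 56011051 to 56051604, minus strand), the phosphatase that releases serine, was at 30.4, 29.8, 31.0 and 33.6 FPKM untreated and at 16.2, 17.7, 17.6 and 19.9 FPKM treated. These groups were also separate, and the mean fell from 31.2 ± 1.67 to 17.9 ± 1.51 FPKM (SD, n = 4; log2 fold change -0.77, limma adjusted p = 0.00089, SE 0.115). PSPH has near-identical pseudogene copies, and the authors' handling of reads shared with them is not given in the sources used here.

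ASNS, PSAT1, PHGDH and PSPH kept their calls in 8 of 8 fits that left out 1 library. Their falls were also called with the GC trend removed, at log2 fold changes of -1.12, -0.80, -1.36 and -0.76, and without both libraries numbered 5, at -0.95, -0.64, -1.58 and -0.79.

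The mitochondrial folate enzymes and the enzymes of cysteine synthesis included falls and a rise. MTHFD2, a mitochondrial folate dehydrogenase, fell from 22.4 ± 4.35 to 14.4 ± 2.30 FPKM (SD, n = 4; log2 fold change -0.60, limma adjusted p = 0.0265, SE 0.168). The groups of MTHFD2 overlapped, and the call held in 2 of 8 fits that left out 1 library: it was lost without untreated replicate 1, 3 or 4 and without dexamethasone replicate 3, 4 or 5, with adjusted p up to 0.0776, and with no scaling between libraries (0.0913). With the GC trend removed MTHFD2 was called at -0.83 (limma adjusted p = 0.000109), and without both libraries numbered 5 at -0.65 (0.00664). ALDH1L2, a mitochondrial formyltetrahydrofolate dehydrogenase, went the other way. It rose from 0.625 ± 0.198 to 1.32 ± 0.217 FPKM (SD, n = 4), 211% of the untreated level, with no overlap between groups and a call in 8 of 8 such fits (log2 fold change 0.52, limma adjusted p = 0.0104, SE 0.118; 1.00 with a pseudocount of 0.1). With the GC trend removed its log2 fold change was 0.30 (limma adjusted p = 0.0154), and without both libraries numbered 5 it was 0.51 (0.00206). CBS, which joins serine and homocysteine, fell from 3.82 ± 1.20 to 2.06 ± 0.226 FPKM (SD, n = 4; log2 fold change -0.63, limma adjusted p = 0.0216, SE 0.169). The groups of CBS did not overlap, and the call was lost without dexamethasone replicate 1, 3 or 4 (adjusted p up to 0.0675). It was -0.40 with the GC trend removed (limma adjusted p = 0.00461) and -0.51 without both libraries numbered 5 (0.00572).

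The remaining enzymes did not pass the test. SHMT2, which converts serine to glycine in mitochondria, was at 45.6 ± 12.4 FPKM untreated and 28.9 ± 6.88 FPKM treated (SD, n = 4; limma adjusted p = 0.077), with overlapping groups. SHMT2 was called lower without untreated replicate 4 (limma adjusted p = 0.0295), with no scaling (0.0391) and with replicate number added to the fit as a block (0.0306). CTH, which releases cysteine from cystathionine, was at 0.922 ± 0.153 and 1.26 ± 0.287 FPKM (limma adjusted p = 0.174).

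**Figure D2:**
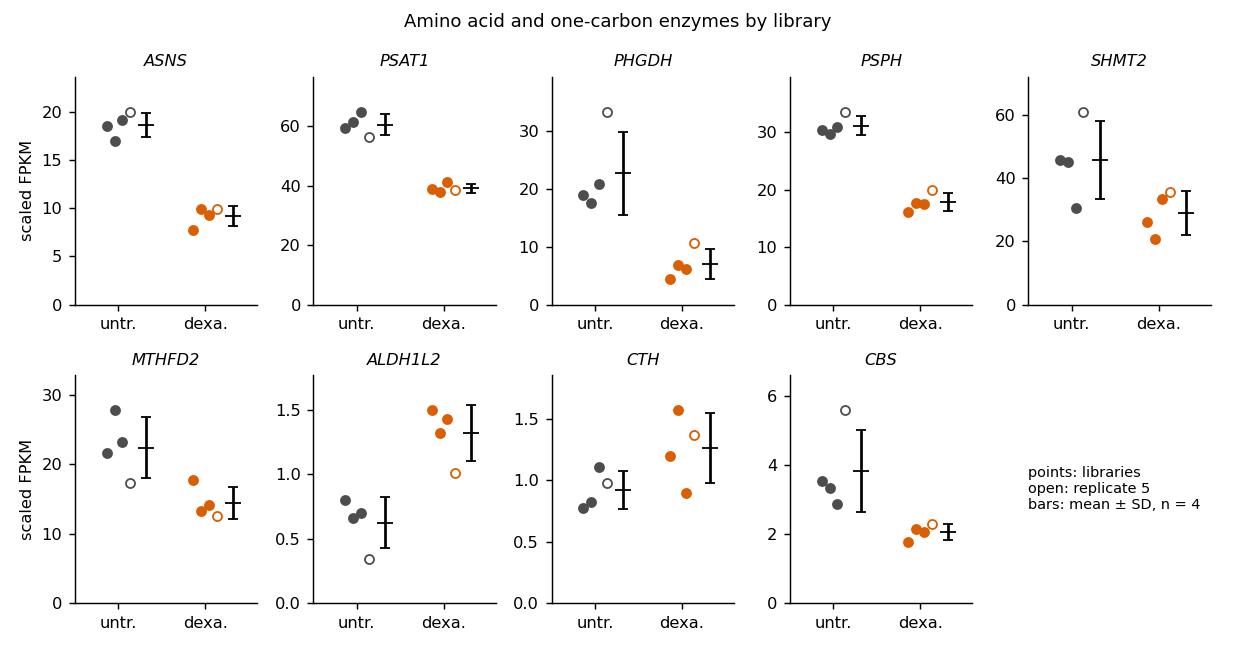
Scaled FPKM of the 9 amino acid and one-carbon enzymes, 1 panel per gene, on linear axes from 0; points are libraries, open points those numbered 5, and bars the mean and SD of 4 libraries. ASNS, PSAT1, PHGDH, PSPH and CBS have all 4 treated libraries below the untreated ones, and ALDH1L2 has them above.

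Among the 4 transcription factors, ATF3 fell (25% called, beside 26.8% of all genes). ATF3 (chromosome 1, 212565334 to 212620777, plus strand), a stress-induced factor downstream of ATF4, was at 1.81, 1.75, 1.21 and 1.40 FPKM in the untreated libraries (replicates 1, 3, 4 and 5) and at 0.640, 0.827, 0.578 and 0.610 FPKM in the treated ones. The groups were separate. The mean fell from 1.54 ± 0.285 to 0.664 ± 0.112 FPKM (SD, n = 4), 43.0% of the untreated level (log2 fold change -0.61, limma adjusted p = 0.00253, SE 0.107), and the call held in 8 of 8 fits that left out 1 library. On the log2(FPKM + 0.1) scale the change was -1.10. ATF3 was called at -0.53 with the GC trend removed (limma adjusted p = 0.00473) and at -0.63 without both libraries numbered 5 (0.0045).

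ATF4 mRNA itself (chromosome 22, 39519695 to 39522685, plus strand) did not pass the test, although the groups did not overlap. It was at 81.9, 71.8, 77.0 and 92.0 FPKM untreated and at 61.4, 56.4, 57.7 and 69.6 FPKM after dexamethasone, so that the highest treated library was just below the lowest untreated one. The log2 fold change was -0.39 (95% interval -0.69 to -0.09, limma adjusted p = 0.0582). ATF4 was called at -0.24 with the GC trend removed (0.0388), at -0.38 without both libraries numbered 5 (0.00633), with no scaling (0.0108), with no filter on low values (0.0495) and in limma without trend and robust (0.0423). With replicate number added to the fit as a block ATF4 was called at -0.39 (limma adjusted p = 0.00689), and with the block and GC removal at -0.24 (0.0189). Of 8 fits that left out 1 library 2 called ATF4, those without untreated replicate 5 (0.0395) or dexamethasone replicate 5 (0.0393). ATF4 is controlled mainly at translation, which these libraries do not measure.

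DDIT3 (chromosome 12, 57488072 to 57521737 as deposited, minus strand) encodes the pro-apoptotic factor CHOP. It was at 3.48, 3.36, 2.80 and 3.82 FPKM untreated and at 1.97, 2.91, 2.25 and 2.81 FPKM treated. The groups overlapped slightly, with treated replicates 3 and 5 inside the untreated range. The log2 fold change was -0.33 (95% interval -0.63 to -0.03, limma adjusted p = 0.1). DDIT3 was called lower with replicate number as a block (limma adjusted p = 0.0411). The deposited locus overlaps ARHGAP9 on the same strand and MARS1 and MBD6 on the opposite strand, so reads of these genes could be shared. NUPR1, a small stress-induced chromatin protein, was at 2.97 ± 1.28 FPKM untreated and 4.53 ± 0.937 FPKM treated (SD, n = 4; limma adjusted p = 0.163).

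The 7 feedback and effector genes did not pass the test, which 26.8% of all genes passed, and 0 of them had an unadjusted limma p under 0.05. The group holds TRIB3, a pseudokinase that restrains ATF4 and AKT, CHAC1, which degrades glutathione, SESN2, which restrains mTORC1, and PPP1R15A and PPP1R15B, which direct the phosphatase that restores eIF2. It also holds the lipoprotein receptor VLDLR and the secreted glycoprotein STC2. Their log2 fold changes lay between -0.19 (TRIB3) and 0.47 (PPP1R15B), with groups overlapping in all 7. TRIB3 was at 74.5 FPKM in untreated replicate 5 and at 19.3 to 23.5 FPKM in the other untreated libraries, and without both libraries numbered 5 its log2 fold change was 0.25 in place of -0.19. PPP1R15B was at 7.14 FPKM in untreated replicate 5 and at 14.8 to 16.0 FPKM in the others. Without both libraries numbered 5 it was called higher, at 0.37 (limma adjusted p = 0.00622). The 95% interval of the difference ran from -1.03 to 0.66 for TRIB3 and from -0.53 to 0.18 for SESN2.

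Among the ER genes, the 3 sensors had higher means after dexamethasone and 2 of them passed the test, as did 26.8% of all genes. ATF6 (chromosome 1, 161766294 to 161964070, plus strand) was at 5.92, 5.74, 5.75 and 4.77 FPKM in the untreated libraries (replicates 1, 3, 4 and 5) and at 8.63, 8.98, 8.63 and 8.10 FPKM in the treated ones. Every treated library was above every untreated one, as for 14.7% of all genes. The mean rose from 5.54 ± 0.521 to 8.59 ± 0.360 FPKM (SD, n = 4), 155% of the untreated level (log2 fold change 0.55, limma adjusted p = 0.00598, SE 0.115). ATF6 was called in 8 of 8 fits that left out 1 library, at 0.33 with the GC trend removed (0.025) and at 0.53 without both libraries numbered 5 (0.00116).

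ERN1 (chromosome 17, 64039142 to 64130819, minus strand) was at 3.67, 3.95, 3.65 and 2.76 FPKM untreated and at 5.53, 5.51, 4.75 and 4.85 FPKM treated. The groups were separate, and the mean rose from 3.51 ± 0.517 to 5.16 ± 0.418 FPKM (SD, n = 4; log2 fold change 0.46, limma adjusted p = 0.0265, SE 0.129). The call was lost without untreated replicate 1 or dexamethasone replicate 1, 3 or 4 (adjusted p up to 0.0823) and with no scaling (0.0886). ERN1 was called at 0.55 with the GC trend removed (limma adjusted p = 0.0103) and at 0.40 without both libraries numbered 5 (0.01). EIF2AK3 (chromosome 2, 88556741 to 88627576, minus strand) was at 3.48, 4.66, 4.47 and 2.30 FPKM untreated and at 6.56, 5.70, 5.59 and 4.61 FPKM treated. Treated replicate 5 lay just below the highest untreated library, and the other treated libraries lay above all of them. The log2 fold change of EIF2AK3 was 0.51 (95% interval 0.09 to 0.93, limma adjusted p = 0.0727), and it was called at 0.38 with the GC trend removed (0.0305) and at 0.43 without both libraries numbered 5 (0.0213).

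XBP1 (chromosome 22, 28794555 to 28800597, minus strand), the factor whose mRNA IRE1 splices, was at 19.5, 16.0, 23.6 and 22.6 FPKM untreated and at 25.7, 22.9, 16.6 and 22.4 FPKM treated. The groups covered nearly the same range. The log2 fold change was 0.09 (95% interval -0.29 to 0.48, limma adjusted p = 0.705). These values are sums over the gene and do not separate spliced from unspliced XBP1 mRNA.

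HSPA5 (chromosome 9, 125234853 to 125241330, minus strand), which encodes BiP, the main HSP70 of the ER and the usual readout of the unfolded protein response, was at 143, 146, 145 and 141 FPKM untreated and at 123, 137, 131 and 145 FPKM treated. The untreated libraries were tightly grouped and treated replicate 5 lay among them, with the other treated libraries below. The mean was 144 ± 2.29 FPKM untreated and 134 ± 9.28 FPKM treated (SD, n = 4; log2 fold change -0.10, 95% interval -0.38 to 0.17, limma adjusted p = 0.566). HSPA5 did not pass the test in any of the other fits tried.

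The cofactors of BiP varied among themselves. DNAJC3 (chromosome 13, 95677139 to 95794989, plus strand), an ER co-chaperone also known as an inhibitor of eIF2 kinases, was at 4.47, 6.12, 5.66 and 2.37 FPKM untreated and at 9.12, 8.41, 9.32 and 6.24 FPKM treated. The groups were separate by a small margin, and replicate 5 was the lowest library in both. The mean rose from 4.66 ± 1.68 to 8.27 ± 1.41 FPKM (SD, n = 4; log2 fold change 0.76, limma adjusted p = 0.0415, SE 0.237). The call was lost without untreated replicate 1 or dexamethasone replicate 1, 3 or 4 (adjusted p up to 0.109), with no scaling (0.107) and with no filter on low values (0.064), and the log2 fold change was 0.48 with the GC trend removed (0.00729) and 0.65 without both libraries numbered 5 (0.00329). SDF2L1, a small partner of ER chaperone complexes, had all treated libraries below the untreated ones, at 27.7 ± 8.68 FPKM untreated and 17.6 ± 3.69 FPKM treated (SD, n = 4; log2 fold change -0.61, limma adjusted p = 0.0657). SDF2L1 was called lower with the GC trend removed (-0.32, 0.035), without both libraries numbered 5 (-0.52, 0.00854) and with no scaling (0.0161).

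Another 4 chaperones did not pass the test. HSP90B1, the ER HSP90, was at 86.9 ± 17.7 FPKM untreated and 109 ± 1.97 FPKM treated (SD, n = 4; limma adjusted p = 0.136), and HYOU1, a large HSP70 that exchanges nucleotide on BiP, at 40.0 ± 4.63 and 32.2 ± 7.51 FPKM (0.21). The J-domain partners of BiP had log2 fold changes of 0.55 for DNAJB9 (limma adjusted p = 0.162) and -0.20 for DNAJB11 (0.266), whose treated libraries were all below the untreated ones. DNAJB9 was called higher without both libraries numbered 5 (0.47, limma adjusted p = 0.0162) and had 0.19 with the GC trend removed (0.182). The secreted ER proteins CRELD2 and MANF were at 13.7 ± 4.12 and 27.8 ± 3.56 FPKM untreated and at 14.5 ± 3.04 and 23.6 ± 3.74 FPKM treated (SD, n = 4), with limma adjusted p of 0.771 and 0.297. CRELD2 was called higher with the GC trend removed (0.34, 0.0228).

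The lectin chaperones and disulfide isomerases were abundant. CALR, the lectin chaperone calreticulin, was at 395 ± 91.9 FPKM untreated and 309 ± 48.4 FPKM treated (SD, n = 4; limma adjusted p = 0.227), and its membrane-bound relative CANX at 157 ± 27.8 and 189 ± 13.0 FPKM (0.232). PDIA4 had all treated libraries below the untreated ones, at 107 ± 3.52 and 82.8 ± 8.47 FPKM, with a log2 fold change of -0.38 (limma adjusted p = 0.054). PDIA4 was called lower with the GC trend removed (0.038), without both libraries numbered 5 (0.00484) with no scaling (0.0267), with no filter on low values (0.0383) and in limma without trend and robust (0.0336). PDIA3 had all treated libraries above the untreated ones, but by 60.9 ± 3.14 against 55.8 ± 1.57 FPKM (limma adjusted p = 0.445), and PDIA6 was at 156 ± 2.83 and 141 ± 12.2 FPKM (0.413).

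The 3 genes of ER-associated degradation had positive log2 fold changes and did not pass the test. HERPUD1, an adaptor of the ubiquitin ligase complex, was at 15.9 ± 3.03 FPKM untreated and 20.2 ± 6.09 FPKM treated (SD, n = 4; limma adjusted p = 0.408). EDEM1, which marks misfolded glycoproteins, was at 9.67 ± 2.69 and 12.8 ± 1.71 FPKM (0.177), and SEL1L, the partner of the ligase HRD1, at 12.0 ± 4.23 and 18.6 ± 3.97 FPKM (0.121). EDEM1 and SEL1L were both at 5.75 FPKM in untreated replicate 5, below all other libraries, and both were called higher without the libraries numbered 5 (0.0218 and 0.0052).

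**Figure D3:**
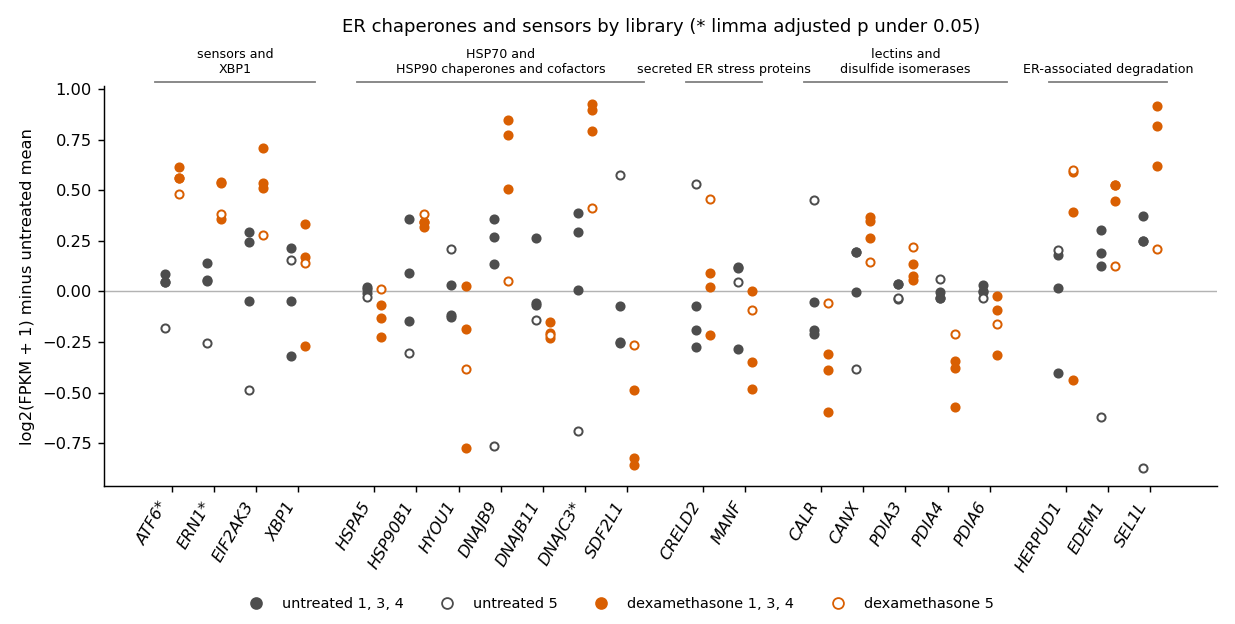
Each of the 21 ER chaperones and sensors in each library, as log2(FPKM + 1) minus the untreated mean; grey points are untreated and orange points dexamethasone libraries, open points are the libraries numbered 5, and an asterisk marks a limma adjusted p under 0.05. The 3 genes with an asterisk, ATF6, ERN1 and DNAJC3, have all treated points above the untreated ones, and the open untreated point is the lowest of its group for 12 of the 21 genes.

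Matches to the ER stress response elements, to which ATF6 and XBP1 bind, were present in part of the ER genes. These elements are known for the response by which the genes were chosen, so the matches are a description and no independent result. The first form was searched as CCAAT and CCACG with 9 bases of any kind between them and the second as ATTGG and CCACG with 1 base between them, on both strands, and either was present in 0.131% of 35116 windows. Of 20 ER genes with a window, 7 held the first form (CALR, CANX, CRELD2, HSP90B1, HSPA5, PDIA6 and XBP1) and 3 the second (HERPUD1, HYOU1 and SDF2L1). Of 16 ATF4-type targets 0 held either. Here too the counts are of genes, some with several windows, and the percentages are of windows. The unfolded protein response element, searched as TGACGTGG, was present in 0.729% of windows and among the members in that of HYOU1, where it overlaps a match to the second form. The stretches below show matches in capitals on the strand of the gene for HSPA5 (chr9:125241386-125241414, minus strand), XBP1 (chr22:28800598-28800626, minus strand), PDIA6 (chr2:10812848-10812876, minus strand), CALR (chr19:12938359-12938427, plus strand, element on the opposite strand), HERPUD1 (chr16:56932000-56932060, plus strand) and SDF2L1 (chr22:21642089-21642149, plus strand, element on the opposite strand).
HSPA5: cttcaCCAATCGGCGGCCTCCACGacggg
XBP1: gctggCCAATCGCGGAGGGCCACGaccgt
PDIA6: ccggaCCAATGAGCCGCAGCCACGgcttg
CALR: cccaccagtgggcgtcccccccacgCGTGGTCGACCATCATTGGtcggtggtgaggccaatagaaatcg
HERPUD1: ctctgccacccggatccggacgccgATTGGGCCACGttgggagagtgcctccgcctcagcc
SDF2L1: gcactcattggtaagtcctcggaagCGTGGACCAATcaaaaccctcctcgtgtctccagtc
The 10 genes with either form had 5 positive and 5 negative log2 fold changes, from -0.61 to 0.35, and 0 of them passed the limma test on all 8 libraries. Of these 10, 2 passed with the GC trend removed (CRELD2 higher and SDF2L1 lower) and 2 without both libraries numbered 5 (SDF2L1 and CALR, both lower). For all genes the shares called were 26.8% on all 8 libraries, 37.0% with the GC trend removed and 45.2% without both libraries numbered 5. The rises of ATF6, ERN1 and DNAJC3 were in genes whose windows held no match, which says only that these letters are not in those windows.

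Fold change and GC content are set side by side here as a description. Across the 21 ER genes the Spearman coefficient of log2 fold change with transcript GC content was -0.79, across the 20 ATF4-type targets -0.105, and across 12130 genes -0.454. These genes share the same 8 libraries and are not independent. DNAJC3, ATF6 and ERN1 had GC contents of 39.9%, 41.2% and 50.8%, and SDF2L1, with the most negative log2 fold change of the list, had 65.1%. Without both libraries numbered 5 the coefficients were -0.727, 0.059 and -0.378 in the same order. The falling enzymes came from both ends of the range, with ASNS at 42.7% and PHGDH at 58.1%. With the GC trend of each library removed, ATF6, ERN1 and DNAJC3 were called higher at log2 fold changes of 0.33, 0.55 and 0.48.

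**Figure D4:**
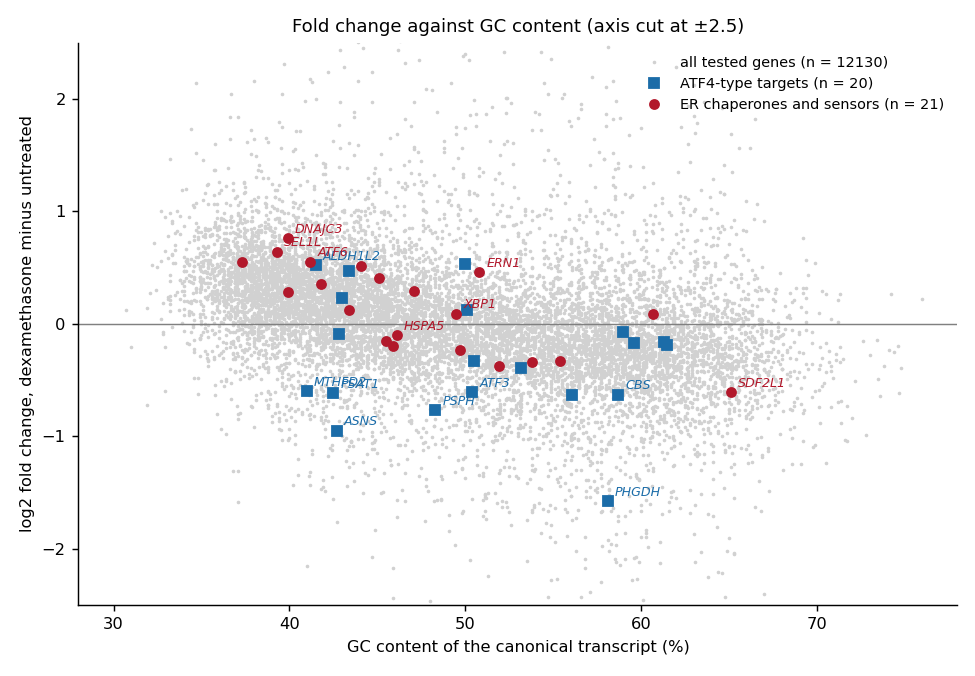
Log2 fold change of each gene against the GC content of its canonical transcript in percent; grey points are all genes with a known GC content, blue squares the 20 ATF4-type targets and red circles the 21 ER chaperones and sensors. The ER genes slope downward from SEL1L and DNAJC3 at about 39% to 40% GC to SDF2L1 at 65.1%, while ASNS and PHGDH lie low at 42.7% and 58.1%.

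**Figure D5:**
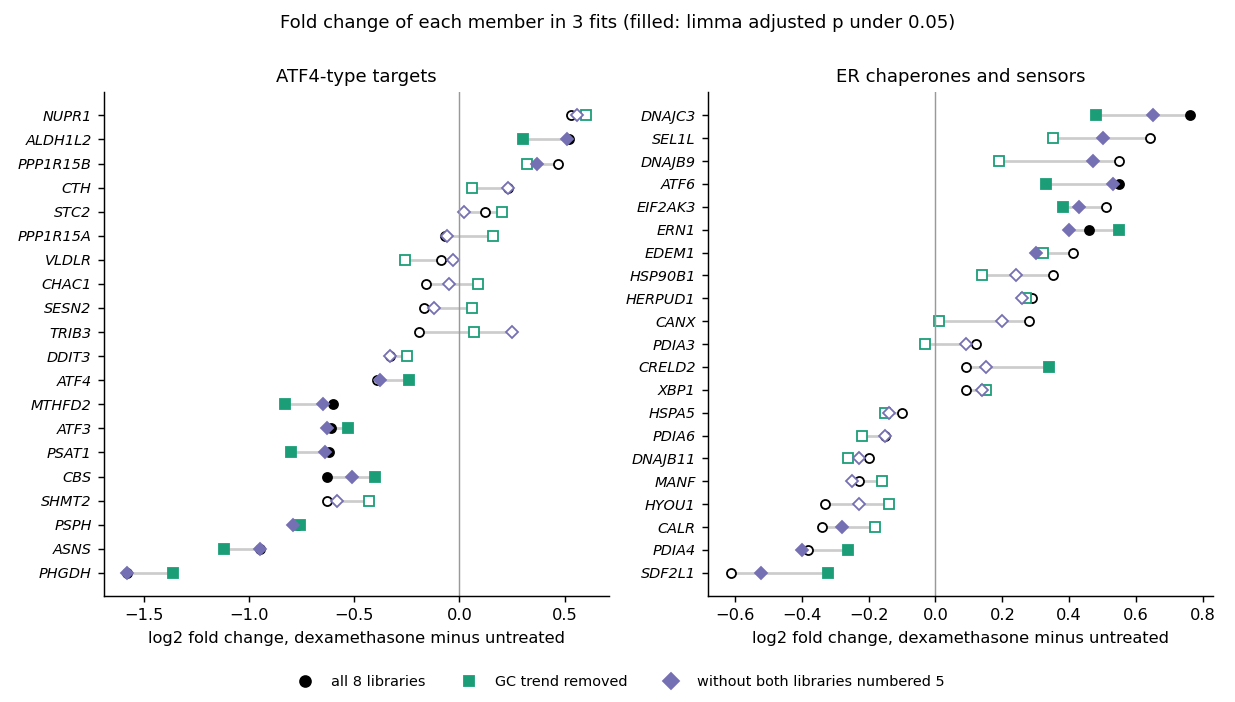
Log2 fold change of each of the 41 genes in 3 limma fits, with all 8 libraries (circles), with the GC trend removed (squares) and without both libraries numbered 5 (diamonds); filled symbols have an adjusted p under 0.05. The symbols of ASNS, PSAT1, PHGDH, PSPH, MTHFD2, CBS, ATF3, ALDH1L2, ATF6, ERN1 and DNAJC3 are filled in all 3 fits. HSPA5 and XBP1 have none filled.

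Genes of the same pathways outside the 41 are given from lists written with earlier results of these data known. The counts that follow stand beside 14.2% of all genes lower and 12.6% higher (26.8% in all). Of 9 amino acid transporters tested, 6 fell and 2 rose (88.9%). The glycine transporter SLC6A9 fell from 6.88 ± 1.46 to 3.43 ± 0.589 FPKM and the cationic amino acid transporter SLC7A1 from 19.7 ± 1.37 to 12.1 ± 0.935 FPKM (SD, n = 4; limma adjusted p of 0.00434 and 0.00235), while SLC38A2, a neutral amino acid transporter and one of the known ATF4 targets, rose from 67.2 ± 24.1 to 145 ± 25 FPKM (0.0144). Of 12 aminoacyl-tRNA synthetases, which charge tRNA with amino acids and include ATF4 targets, 1 fell and 2 rose, 25% and near the share of all genes. MARS fell at a log2 fold change of -0.64 and EPRS rose at 0.61 (limma adjusted p of 0.0167 and 0.0319), and with no scaling between libraries 0 synthetases rose and 2 fell. The calls of MARS and EPRS held in 5 and 3 of 8 fits that left out 1 library. Of 17 other enzymes of serine, folate and sulfur amino acid metabolism, 4 fell and 3 rose (41.2%). Thymidylate synthase, TYMS, also needed for DNA synthesis, fell at a log2 fold change of -1.09 (limma adjusted p = 0.000971).

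Of 12 other genes of the ATF4 pathway, 4 rose and 1 fell (41.7%). DDIT4, an inhibitor of mTORC1 and a known glucocorticoid target, rose from 52.8 ± 10.7 to 228 ± 19.4 FPKM, and GDF15, a stress cytokine, fell from 104 ± 29.0 to 16.7 ± 4.19 FPKM (SD, n = 4; limma adjusted p of 1.75e-05 and 4.18e-05). With the GC trend removed, 4 of the 12 rose and 4 fell (66.7%, beside 37.0% of all genes).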

How the data were processed

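Total RNA of 8 wells of A549 cells was depleted of ribosomal RNA and sequenced, per the labels' protocols. Per the submitters' processing notes, reads were handled with FastQC 0.11.9, cutadapt 3.4, STAR 2.7.9a, GRCh38, featureCounts (Subread 2.0.3) and DESeq2 1.32.0; the annotation release and strand setting are not given in the sources used here. The deposited values are described by the authors as counts but are not whole numbers. They were read as FPKM from the values alone, so the deposited FPKM took a log-scale test and no count test. Their sums ran from 338989 to 373855 per library.

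Scaling between libraries used trimmed M values (0.3 of M and 0.05 of A removed at each end; factors 0.821 to 1.09). The 12161 genes with at least 0.5 FPKM in at least 4 libraries were tested as log2(FPKM + 1) with limma 3.58.1 in R 4.3.3 (trend and robust), with group as the only term, two-sided, Benjamini-Hochberg adjusted. With 1 library left out, 3 libraries had to reach the minimum. The procedure was tested on simulated data with independent noise for each gene and library. Those data held no GC trend and no departure shared across a library, so the procedure was not tested under either. GC content came from GENCODE 44 canonical transcripts, and its trend was removed per library by loess with a span of 0.5. Of the 41 members, 12 overlap another annotated gene on the same strand and 21 on the opposite strand. Coordinates of the members are as deposited, and their strands are from GENCODE 44.

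The members and lists were chosen with earlier results of these data known. Named with a value in every library were ATF4, DDIT3, ATF6, ERN1, EIF2AK3, XBP1 and HSPA5, and in each role the called members, at most 4 with the smallest p; from each list of other pathway genes, the 2 with the smallest p, of which 1 gene is not reported here. TSC22D3 and PER1, 2 other genes set as a check of the labels, also rose, to 102 ± 5.33 and 16.2 ± 3.79 FPKM (SD, n = 4). In the pathway lists SLC38A2 was added after its values were seen. Symbols are those of the files. Alternatives tried were another pseudocount (0.1), filter (none, or 1 FPKM), scaling (none, or median of ratios), limma without trend and robust, GC removal, replicate numbers as a block, and leaving out libraries.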

Additional observations from a re-analysis of the deposited data

Results flagged for a closer look

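In 7 of 82 groups of 4 libraries (41 genes, both treatments) 1 library lay far from the other 3 by Dixon's criterion, where chance gives about 4. All 7 were untreated replicate 5. It was the highest of its group for TRIB3 (74.5 FPKM, others 19.3 to 23.5), CHAC1 (3.12 FPKM, others 1.19 to 1.42), PPP1R15A (24.8 FPKM, others 16.7 to 17.4) and SDF2L1 (40.5 FPKM, others 22.4 to 25.5). It was the lowest for PPP1R15B (7.14 FPKM, others 14.8 to 16.0), ATF6 (4.77 FPKM, others 5.74 to 5.92) and SEL1L (5.75 FPKM, others 13.7 to 15.0). The 4 genes at which it was highest have transcript GC contents of 59.0% to 65.1%, and the 3 at which it was lowest 39.3% to 43.4%.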

How the results depend on the processing

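With all 8 libraries 3258 of 12161 genes were called. The fit without both libraries numbered 5 called 5534 of 12236 genes, 3214 of them among the 3258. Fits with 1 library left out called 2285 to 3876 of 12252 to 12285 genes. With replicate numbers as a block 5738 of 12161 genes were called, and 5296 with the block and the GC trend removed. The numbers are not stated to mark shared wells or days. The correlations of deviations between libraries of the same number (0.294, 0.067, 0.315 and 0.713) do not all pass 0.1. Between libraries of different numbers they ran from -0.573 (untreated 5 with dexamethasone 1) to 0.435 (untreated 3 with dexamethasone 1). The highest of these was above the same-number values of replicates 1, 3 and 4. Each deviation was taken from a group mean that includes replicate 5, which stood apart in both groups. These correlations therefore cannot decide whether the numbers mark pairs. The ATF4-type targets called were 8, from 6 to 9 with 1 library left out and 12 with the block. The block added ATF4, DDIT3 and SHMT2 as lower and PPP1R15B as higher. Among the ER genes it added EIF2AK3, DNAJB9, EDEM1 and SEL1L as higher and SDF2L1, PDIA4 and CALR as lower. The ER genes called were 3: 7 with the GC trend removed, 10 with the block, 10 with the block and GC removal, 10 without both libraries numbered 5, and 1 to 5 with 1 library left out (1 without untreated replicate 1 or dexamethasone replicate 1, 3 or 4; 5 without dexamethasone replicate 5). The cause was not tested. The list medians kept their sign in all fits, from -0.35 to -0.18 and from 0.09 to 0.21 with 1 library left out.

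Signs changed for 7 genes, none of them called in the fit on all 8 libraries. With the GC trend removed, alone or with the block, log2 fold changes were 0.07 for TRIB3, 0.09 for CHAC1, 0.06 for SESN2, 0.16 for PPP1R15A and -0.03 for PDIA3; TRIB3 was 0.25 without both libraries numbered 5. With 1 library left out they ran from -0.39 to 0.23 for TRIB3, -0.26 to 0.04 for CHAC1, -0.20 to 0.04 for PPP1R15A, -0.01 to 0.21 for XBP1 and -0.03 to 0.25 for CRELD2. The other pseudocount, median-of-ratios scaling and the filter at 1 FPKM changed no call of a gene that was tested; ALDH1L2 was not tested at that filter. The FPKM do not give the depth directly, so counting error at low genes such as ALDH1L2 is not known.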

Other observations

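Upstream of ATF4, the kinases, subunits and regulators of eIF2 and eIF2B were not called: 0 of 13 passed limma at an adjusted p under 0.05. An unadjusted limma p under 0.05 was found for 2 (EIF2AK4, the amino acid sensor GCN2, and OMA1, a mitochondrial stress protease). With the GC trend removed 1 was called, 2 without both libraries numbered 5 and 4 with replicate numbers as a block, all higher. Among all genes, 26.8% were called on all 8 libraries, 37.0% with the GC trend removed and 45.2% without both libraries numbered 5. The block called 5738 of 12161 genes. EIF2AK4 was at 9.41 ± 1.34 FPKM untreated and 12.6 ± 0.957 FPKM treated (SD, n = 4; log2 fold change 0.39, limma adjusted p = 0.0561), and OMA1 had a log2 fold change of 0.39 (0.101).

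Of all genes 26.8% were called, 37.0% with the GC trend removed and 45.2% without both libraries numbered 5. Of 22 other folding enzymes and chaperones, 4 rose (PDIA5, ERP44, DNAJC1 and SEC63) and 1 fell (TXNDC5), 22.7% of the list (31.8% and 36.4% in those other fits), with PDIA5 and DNAJC1 at log2 fold changes of 0.59 and 0.61 (limma adjusted p of 0.00603 and 0.00389). ERP44 and SEC63 were not called with the GC trend removed (limma adjusted p of 0.538 and 0.165). Of 19 other genes of ER-associated degradation, 10.5% were called (31.6% and 42.1%): HERPUD2 rose and UBE2J2 fell (log2 fold changes of 0.34 and -0.50, limma adjusted p of 0.0492 and 0.0152). The call of HERPUD2 held in 1 of 8 fits that left out 1 library. UBE2J2 was not called with the GC trend removed (limma adjusted p = 0.106). Of 19 translocon and signal peptide genes, 5.26% were called (15.8% and 26.3%). SRP54 rose (0.50, limma adjusted p = 0.0297) and was not called with the GC trend removed (0.0632). SEC62 had a log2 fold change of 0.74 (limma adjusted p = 0.0529), and with no scaling between libraries 0 of the 19 were called. Of 11 genes of ER to Golgi transport and transmembrane bZIP factors, 9.09% were called (27.3% and 18.2%). SAR1B, a GTPase of the vesicle coat that leaves the ER, rose from 6.82 ± 0.7 to 14.7 ± 1.66 FPKM (SD, n = 4; log2 fold change 1.00, limma adjusted p = 0.000398), and SEC24D had a log2 fold change of 0.33 (0.0919).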
